A study of Mus musculus with 9 samples.

Results

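Glycolysis and hypoxia-response genes were compared across 3 mouse tumour cell lines grown in culture. The set was chosen by name and holds the enzymes of glycolysis, the kinases that hold pyruvate back from the mitochondria, the oxygen sensors with the HIF alpha subunits, and a group of well-known HIF target genes. Of 41 listed genes, 37 were rows of the deposited table of 11046 genes, and all 37 were tested. The other 4 (Ldhb, Car9, Epas1 and Ero1l) were not analysed here. The table has a row named Ero1a, for which RefSeq gives Ero1l as a synonym, and it is described with the further HIF targets below.

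Glycolysis splits glucose into pyruvate and yields ATP without oxygen. Lactate dehydrogenase turns pyruvate into lactate, while the pyruvate dehydrogenase kinases (Pdk genes) switch off the enzyme that feeds pyruvate into mitochondria. When oxygen is plentiful, the EGLN prolyl hydroxylases mark HIF alpha subunits for destruction. When oxygen is short, the HIF alpha subunits accumulate, bind a short DNA element near many genes and raise their transcription, glycolytic enzymes among them. Many tumour lines run glycolysis at a high rate even in air, and several of the genes below are used as readouts of HIF activity.

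Per the labels, 482N1 is a non-small-cell lung cancer line, B16F10-BrM a melanoma line with mutant BRAF and E0771-BrM a triple-negative breast cancer line, with BrM standing for brain metastatic. All 3 lines carried the genotype label WT and none was treated, and each had 3 libraries named A, B and C. The medium was DMEM for 482N1 and for B16F10-BrM, and RPMI 1640 plus HEPES for E0771-BrM. Line and medium therefore cannot be told apart in any difference that involves E0771-BrM. The oxygen level and the cell density of the cultures are not given in the labels. The labels do not say whether the 3 libraries of a line came from separate cultures, so p-values measure the spread between these libraries, which may be technical. Total counts per library lay between 7332390 and 9293348.

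Before the results, some features of the libraries are set out. Markers of each label were checked as far as they were rows of the table. The summed level of Krt8 and Krt18, the measured 2 of 6 epithelial markers, was 7290 to 7910 CPM (the count scaled to a common library size, normalised by TMM) in 482N1, 171 to 208 in E0771-BrM and 0 to 0.125 in B16F10-BrM. In E0771-BrM that sum was nearly all Krt8, at 1640, 1428 and 1477 counts in libraries A, B and C. Krt18 had 3, 0 and 6 counts there. Of 7 melanocyte markers 4 were measured (Dct, Pmel, Tyrp1 and Mitf). They summed to 22000 to 22900 CPM in B16F10-BrM, 2.41 to 25.9 in 482N1 and 39.4 to 91.1 in E0771-BrM. Library B of E0771-BrM had 29, 4 and 3 counts of Dct, Pmel and Tyrp1, so its sum was mostly Mitf. In 482N1 the melanocyte gene Dct had 142 counts in library A, 14 in B and 148 in C, and in E0771-BrM it had 353, 29 and 263. Its level was thus at most 0.26% of that in B16F10-BrM, and libraries A and C of both lines held more of it than library B. Of 5 lung markers 3 were measured (Abca3, Ctsh and Foxa1, without Nkx2-1 and Sftpc). These 3 summed to 166 to 191 CPM in 482N1 and to 4.11 to 19.2 in the other 2 lines. Mammary markers (4 of 4, Areg, Erbb2, Gata3 and again Foxa1) were higher in the lung line than in the breast line. They summed to 50.5 to 66 CPM in E0771-BrM, 132 to 150 in 482N1 and 3.85 to 5.27 in B16F10-BrM. Of the leukocyte markers 2 of 5 were measured, at 24.7 to 34.2 CPM in 482N1, 0.502 to 0.625 in B16F10-BrM and 21.9 to 27.3 in E0771-BrM, and of the endothelial markers only Flt1, at 87.2 to 101, 0 to 0.125 and 5.04 to 6.86 CPM. The part of these markers in the results was not tested. Nuclear 18S RNA (Rn18s) made up 11.6% to 13.1% of counts in 482N1, 6.4% to 7.99% in B16F10-BrM and 6.83% to 8.36% in E0771-BrM.

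The glycolysis and hypoxia-response genes stood highest in the lung line more often than in either other line. 482N1 was called highest for 21 of the 37 genes, a call that 25.4% of all tested genes received. B16F10-BrM was highest for Hk2, Eno1, Pkm and Pgm1 (4 of 37, against 19.8% of all genes), and E0771-BrM for Eno2, Pgm2, Pdk3 and Egln3 (4 of 37, against 19.3%). No single line was called highest for the other 8. All 37 genes differed somewhere among the lines by the joint edgeR test, as did 92.1% of all genes tested.

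Between B16F10-BrM and 482N1, 31 of the 37 genes passed the test (83.8%), 26 of them lower and 5 higher in B16F10-BrM. Of all 11037 genes tested 77.8% passed, 39.9% lower and 38% higher. The median log2 fold change was -0.81 over the 37 genes and -0.04 over all genes. Between E0771-BrM and 482N1, 33 passed (89.2%), 29 lower and 4 higher in E0771-BrM, with 78.1% of all genes passing, 40.4% lower and 37.7% higher. The median was -0.95 over the 37 genes and -0.04 over all genes. Between E0771-BrM and B16F10-BrM, 35 passed (94.6%), 23 lower and 12 higher in E0771-BrM, beside 73.7% of all genes, 36.5% lower and 37.2% higher, and the medians were -0.54 and 0.02. Counting genes that passed and differed by 2-fold or more, 18, 21 and 16 of the 37 did so in these 3 comparisons (48.6%, 56.8% and 43.2%), beside 40.8%, 39.6% and 34.9% of all genes. By direction, 16 were lower and 2 higher in B16F10-BrM than in the lung line (21.9% and 18.9% of all genes), 18 lower and 3 higher in E0771-BrM than in the lung line (21.3% and 18.3%), and 8 lower and 8 higher in E0771-BrM than in the melanoma line (17.5% and 17.4%). At 8-fold or more the 3 numbers were 3, 6 and 3, beside 9.59%, 8.74% and 9.53% of all genes. Among the genes that passed, the split by direction was uneven in all 3 comparisons. At 2-fold or more it was uneven only in the 2 comparisons with 482N1. The 3 comparisons share libraries and are not independent of each other. In bulk RNA, a smaller share of cells that express a gene and less of its RNA per cell cannot be told apart. With library B alone for 482N1 and for E0771-BrM, where the melanoma transcripts were fewest, the genes lower against 482N1 were 22 in B16F10-BrM and 27 in E0771-BrM, beside 36% and 33.6% of all genes in that fit.

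**Figure D1:**
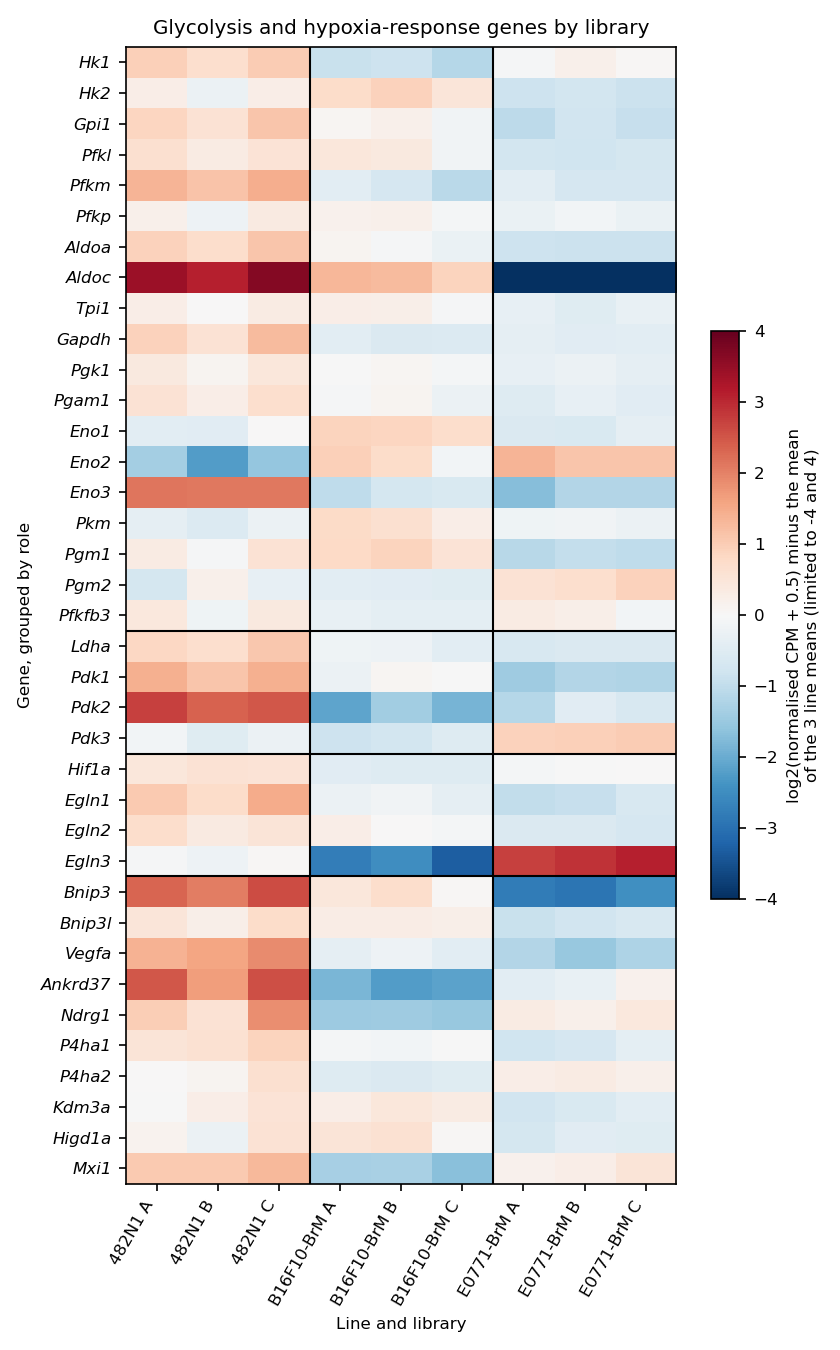
Level of each of the 37 genes (vertical axis, grouped by role) in each of the 9 libraries (horizontal axis), as log2 of normalised CPM plus 0.5 minus the mean of the 3 line means, limited to -4 and 4. Red blocks fill most of the 482N1 columns, as 21 of the 37 genes were highest there, while Egln3, Pdk3 and Pgm2 are red in E0771-BrM and Hk2, Eno1, Pkm and Pgm1 in B16F10-BrM.

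The DNA element that HIF binds has the core letters ACGTG or GCGTG. It was searched for on both strands in the 250 bases before the RefSeq start of each gene (build GRCm38.p6). Windows were found for 35 of the 37 genes, all but Bnip3l and Ndrg1, and 32 of the 35 held at least 1 match in a window (91.4%). The same was true of 64.0% of 8583 genes of the table and of 41.5% of all 27025 genes with a window. A gene with several windows counted if any of them held a match. The 35 genes had 55 windows, while all 27025 genes had 32851. By window, 42 of the 55 held a match (76.4%), against 38.6% of all windows. The motif contains the dinucleotide CG and base composition was not matched, so the shares are a description only. The windows of 4 genes whose levels set the lines apart are shown, read 5′ to 3′ on the gene's strand and ending at the base before the start, with motif letters of either strand in capitals (a capital run can hold overlapping matches, since CACGTG reads the same on both strands). The first pair, Bnip3 and Ankrd37, were highest in 482N1, and the second, Egln3 and Pdk3, in E0771-BrM.
Bnip3, chr7:138909507-138909756, minus strand: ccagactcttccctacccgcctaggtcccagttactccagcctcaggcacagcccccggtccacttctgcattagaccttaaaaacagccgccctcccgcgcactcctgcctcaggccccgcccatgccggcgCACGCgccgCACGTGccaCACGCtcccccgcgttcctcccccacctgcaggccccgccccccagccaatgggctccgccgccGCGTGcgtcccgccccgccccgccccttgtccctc
Ankrd37, chr8:45999851-46000100, minus strand: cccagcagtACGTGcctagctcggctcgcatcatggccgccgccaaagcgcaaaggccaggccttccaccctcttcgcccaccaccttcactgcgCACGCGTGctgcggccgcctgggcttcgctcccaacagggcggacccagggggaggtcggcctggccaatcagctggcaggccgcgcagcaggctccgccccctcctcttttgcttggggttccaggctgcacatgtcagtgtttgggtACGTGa
Egln3, chr12:54203875-54204124, minus strand: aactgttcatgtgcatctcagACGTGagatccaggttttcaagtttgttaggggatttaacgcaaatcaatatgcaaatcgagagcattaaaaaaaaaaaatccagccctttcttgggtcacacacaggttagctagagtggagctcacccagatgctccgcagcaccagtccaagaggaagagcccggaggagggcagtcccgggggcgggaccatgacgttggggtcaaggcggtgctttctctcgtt
Pdk3, chrX:93832151-93832400, minus strand: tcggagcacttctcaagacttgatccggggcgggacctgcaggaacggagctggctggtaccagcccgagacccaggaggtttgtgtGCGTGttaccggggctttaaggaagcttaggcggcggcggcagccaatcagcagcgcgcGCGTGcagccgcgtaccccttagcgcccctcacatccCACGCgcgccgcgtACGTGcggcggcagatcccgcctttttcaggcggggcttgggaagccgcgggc
The Bnip3 window held 4 motif sites, which began 117, 108, 99 and 35 bases before the start. Ankrd37 held 3, at 241, 155 and 6 bases, and Pdk3 held 4, at 163, 104, 67 and 53 bases. Egln3 held 1, at 229 bases. No match was found in the windows of Gpi1, Tpi1 and Eno2, which says only that these letters are absent there.

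Among the enzymes of glycolysis, more genes were lower than higher in both other lines against 482N1. Of 19 such genes, including the phosphoglucomutases and Pfkfb3, 10 stood lower and 5 higher in B16F10-BrM, and 14 lower and 2 higher in E0771-BrM, each against 482N1. These lower shares of 52.6% and 73.7% stand beside 39.9% and 40.4% of all genes, and the higher shares of 26.3% and 10.5% beside 38% and 37.7%. Between E0771-BrM and B16F10-BrM, 13 were lower and 4 higher in E0771-BrM (68.4% and 21.1%), beside 36.5% and 37.2% of all genes.

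Hexokinase puts the first phosphate on glucose, and its 2 measured genes ran in opposite directions between the lung and the melanoma line. In libraries A, B and C, Hk1 stood at 351, 289.6 and 367 CPM in 482N1, 97.8, 101 and 82.3 in B16F10-BrM, and 176, 210 and 189 in E0771-BrM. It was highest in every 482N1 library and lowest in every B16F10-BrM library, with no overlap. The log2 difference of B16F10-BrM from 482N1 was -1.84 ± 0.09 (edgeR adjusted p = 3.96e-21) and that of E0771-BrM -0.81 ± 0.08 (adjusted p = 5.55e-11). Hk2, the isozyme best known from tumours and muscle, was at 138, 97.6 and 138 CPM in 482N1, 191, 221 and 163 in B16F10-BrM, and 64.5, 68.6 and 63.8 in E0771-BrM. Here the melanoma line was highest and the breast line lowest, again without overlap. Hk2 was higher in B16F10-BrM than in 482N1 by a log2 difference of 0.62 ± 0.13 (adjusted p = 0.00038), and lower in E0771-BrM than in B16F10-BrM (log2 -1.54 ± 0.13, adjusted p = 3.65e-08). The count ratio of Hk2 to Hk1, which does not depend on library scaling, was 0.394, 0.337 and 0.376 in 482N1, 1.95, 2.2 and 1.98 in B16F10-BrM, and 0.365, 0.327 and 0.339 in E0771-BrM. In B16F10-BrM it was above that of every library of the other 2 lines, whose values overlapped.

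The next steps reshape and phosphorylate the sugar. Gpi1, glucose-6-phosphate isomerase, was at 831, 679.8 and 991 CPM in 482N1, 483, 524 and 414 in B16F10-BrM, and 222, 266 and 239 in E0771-BrM. It followed the order 482N1, B16F10-BrM, E0771-BrM without overlap, with E0771-BrM 3.44-fold below 482N1. The phosphofructokinase subunits, which catalyse the main controlled step, differed from each other. Pfkl, the liver-type subunit, was at 245, 197 and 233 CPM in 482N1, 218, 210 and 145 in B16F10-BrM, and 95.6, 91.2 and 96.4 in E0771-BrM and was lower in E0771-BrM than in both other lines (log2 difference from 482N1 -1.25 ± 0.13, adjusted p = 1.02e-06), while B16F10-BrM and 482N1 overlapped. Pfkm, the muscle-type subunit, was at 60.5, 51 and 63.9 CPM in 482N1, 16.9, 14.2 and 10.6 in B16F10-BrM, and 16.9, 14.4 and 14.3 in E0771-BrM. All 3 libraries of 482N1 stood above all 6 others, by 4.19-fold over B16F10-BrM and 3.84-fold over E0771-BrM, and the 2 lower lines did not pass the test against each other (adjusted p = 0.461). Pfkp, the platelet-type subunit, ranged only from 139 to 215 CPM over the 9 libraries. It did not pass the test between B16F10-BrM and 482N1 (-0.04 ± 0.11), and its log2 difference of -0.35 ± 0.11 between E0771-BrM and 482N1 passed (adjusted p = 0.00981), but not without library A of 482N1 (adjusted p = 0.0559). Its difference of -0.31 ± 0.11 between E0771-BrM and B16F10-BrM (adjusted p = 0.0195) did not pass without library A or B of B16F10-BrM or library A or C of E0771-BrM (adjusted p from 0.0657 to 0.0774). With library B alone for 482N1 and for E0771-BrM, the Pfkp differences from 482N1 were 0.30 in B16F10-BrM (adjusted p = 0.0146) and 0.09 in E0771-BrM (adjusted p = 0.584), the opposite direction, and that between E0771-BrM and B16F10-BrM was -0.21 (adjusted p = 0.0839). The ratio of Pfkp to Pfkl was thereby 0.783, 0.742 and 0.926 in 482N1, 0.87, 0.913 and 1.09 in B16F10-BrM, and 1.46, 1.7 and 1.45 in E0771-BrM, highest in every E0771-BrM library.

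Aldolase cuts the sugar into its 2 trioses, and Aldoc had the largest fold difference of the glycolytic genes. Aldoa, the form of muscle and of most cells, was at 2386, 2058 and 2746 CPM in 482N1, 1385, 1238 and 1056 in B16F10-BrM, and 724, 702 and 702 in E0771-BrM. The lines followed the order 482N1, B16F10-BrM, E0771-BrM with no overlap, and E0771-BrM was 3.38-fold below 482N1 (log2 -1.76 ± 0.09, adjusted p = 1.97e-13). Aldoc, the form best known from brain, was at 217, 175 and 258 CPM in 482N1, 50.1, 47.9 and 37.5 in B16F10-BrM, and 0.254, 0.48 and 0.374 in E0771-BrM. These E0771-BrM levels rest on 2, 4 and 3 counts, while 482N1 had 1680, 1457 and 2035. The log2 difference of E0771-BrM was -9.13 ± 0.64 from 482N1 (adjusted p = 1.27e-18) and -6.87 ± 0.64 from B16F10-BrM (adjusted p = 6.72e-15), with the widest errors of the 37 genes. Library B of E0771-BrM, with the fewest Dct counts, had the highest Aldoc level of the 3, but counts this low cannot order the libraries. Aldoc was also lower in B16F10-BrM than in 482N1, by 4.79-fold.

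Of the enzymes of the lower pathway, Tpi1, Pgk1, Pgam1 and Pkm differed by less than 2-fold in every comparison. Their levels spanned 303 to 539 CPM for Tpi1 (triose phosphate isomerase), 1288 to 2269.6 for Pgk1 (phosphoglycerate kinase, the first ATP-yielding step), 1833 to 4158 for Pgam1 (phosphoglycerate mutase) and 745 to 1872 for Pkm (pyruvate kinase, the last step). Tpi1, Pgk1 and Pgam1 were all lower in E0771-BrM than in 482N1, with log2 differences of -0.59 ± 0.08, -0.63 ± 0.07 and -0.95 ± 0.10. Pkm went the other way and was 1.94-fold higher in B16F10-BrM than in 482N1 (adjusted p = 6.2e-07). Gapdh, which makes the first NADH of the pathway and often serves as a reference gene, was at 1278, 998 and 1615 CPM in 482N1, 507, 454 and 464 in B16F10-BrM, and 520.3, 494 and 503 in E0771-BrM. Every 482N1 library stood above every other one, by 2.73-fold and 2.57-fold on average, and B16F10-BrM and E0771-BrM did not pass the test against each other (0.09 ± 0.15, adjusted p = 0.611). Gapdh has 76 near-identical genes (at least 95% identity over 300 bases) in the mouse annotation, of which 2 are rows of the table. Pgk1 has 4, Ldha, Bnip3 and Eno1 have 3 each, and Gpi1, Tpi1, Pgam1, Pkm and Bnip3l have 1 each. The values of all these genes are uncertain to the extent that the counting split reads among the copies.

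Enolase, the step before pyruvate kinase, has 3 genes, and each of them peaked in a different line. Eno3, the muscle form, was at 93.1, 92.1 and 91.8 CPM in 482N1, 10, 12.7 and 13.4 in B16F10-BrM, and 6.09, 8.88 and 8.98 in E0771-BrM. Its 482N1 libraries lay within 2 CPM of each other and far above both other lines, by 7.71-fold over B16F10-BrM (log2 -2.95 ± 0.13, adjusted p = 1.16e-26) and 11.5-fold over E0771-BrM (log2 -3.53 ± 0.14, adjusted p = 1.84e-28). Eno1, the form of most tissues, was at 23.7, 23.2 and 32.4 CPM in 482N1, 59.5, 58.7 and 53 in B16F10-BrM, and 21.3, 20.8 and 24.8 in E0771-BrM, highest in all 3 B16F10-BrM libraries (log2 1.11 ± 0.12 from 482N1, adjusted p = 6.31e-12), while 482N1 and E0771-BrM overlapped. Per kilobase of exon, Eno1 stood at 10.4, 22.4 and 8.76 CPM in 482N1, B16F10-BrM and E0771-BrM, far below Pgk1 at 1140, 914 and 737, and 1 of its near-identical copies, Eno1b, is a row of the table. Whether reads of Eno1 were lost to its copies was not tested. Eno2, the neuronal form, was low throughout, with counts of 5, 1 and 4 in 482N1, 50, 35 and 19 in B16F10-BrM, and 56, 49 and 47 in E0771-BrM. It was higher in B16F10-BrM and in E0771-BrM than in 482N1 (log2 3.20 ± 0.56 and 3.86 ± 0.55, adjusted p = 1.29e-08 and 1.52e-11), with no overlap, and the difference of 0.66 ± 0.27 between E0771-BrM and B16F10-BrM passed (adjusted p = 0.0267), but not without library C of B16F10-BrM (0.38, adjusted p = 0.226) or library A of E0771-BrM (0.57, adjusted p = 0.0993).

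Phosphoglucomutase links glucose 6-phosphate to glycogen. The symbols Pgm1 and Pgm2 are listed by RefSeq as synonyms of each other, so which gene each row means depends on the annotation used for counting. The row Pgm1 was at 185, 141 and 219.7 CPM in 482N1, 253, 271 and 213 in B16F10-BrM, and 66.6, 74.6 and 71.4 in E0771-BrM, lowest in all E0771-BrM libraries and 3.47-fold below B16F10-BrM (adjusted p = 2.13e-07). Its smaller difference of 0.43 ± 0.14 between B16F10-BrM and 482N1 (adjusted p = 0.0127), on which its call as highest in B16F10-BrM rests, did not pass without library A of 482N1 (adjusted p = 0.0579). The row Pgm2 was at 8, 15.5 and 10.5 CPM in 482N1, 9.9, 9.66 and 9.32 in B16F10-BrM, and 20.2, 21.8 and 25.7 in E0771-BrM and ran the other way, highest in all E0771-BrM libraries (log2 0.98 ± 0.17 from 482N1, adjusted p = 1.49e-06), with 482N1 and B16F10-BrM overlapping. With library B alone for 482N1 and for E0771-BrM, the Pgm2 difference of E0771-BrM from 482N1 was 0.49 and did not pass (adjusted p = 0.0831). Pfkfb3, which makes the activator of phosphofructokinase, lay between 11.4 and 20.5 CPM in the 9 libraries. It was lower in B16F10-BrM than in 482N1 (-0.61 ± 0.16, adjusted p = 0.000879) and did not pass between E0771-BrM and 482N1 (-0.06 ± 0.16). With library B alone the first of these was -0.18 (adjusted p = 0.468).

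**Figure D2:**
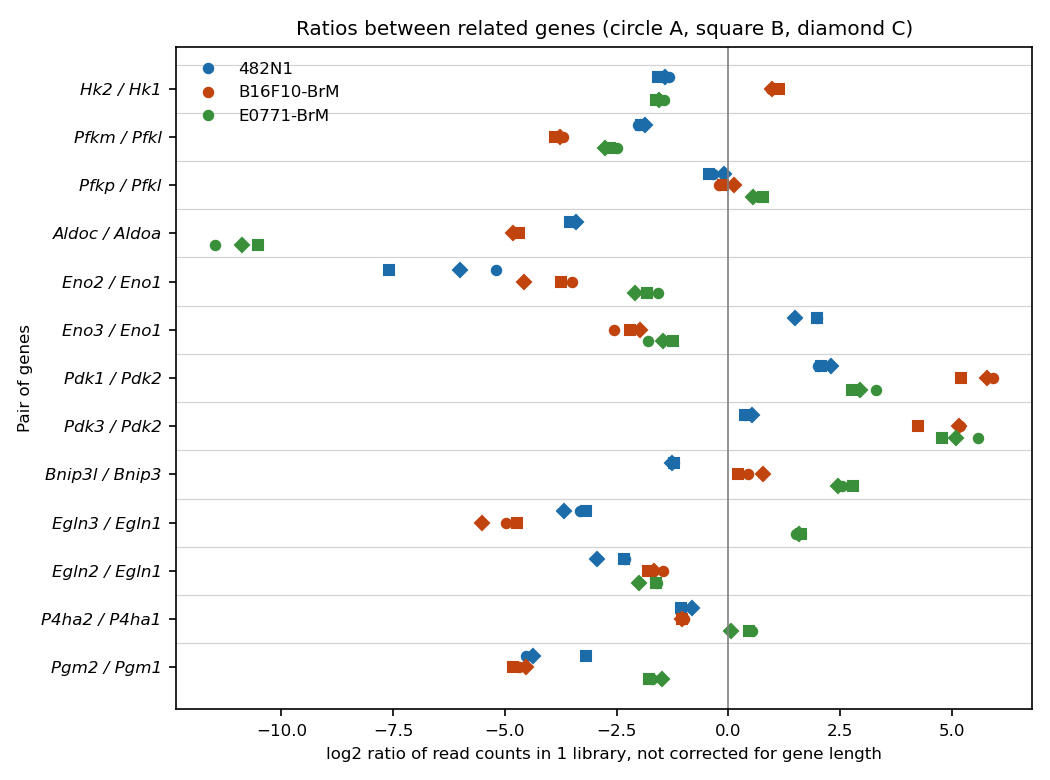
Log2 ratio of the read counts of related genes within 1 library (horizontal axis, not corrected for gene length) for 13 pairs (vertical axis), with colour for the line and symbol for the library. The Hk2 to Hk1 ratio sets B16F10-BrM apart (1.95 to 2.2) and the Egln3 to Egln1 ratio sets E0771-BrM apart (2.85 to 3.09). The Eno3 to Eno1 ratio sets 482N1 apart (2.83 to 3.96), but whether Eno1 reads were lost to near-identical copies was not tested.

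The genes that direct pyruvate to lactate or away from the mitochondria were also highest in 482N1, with 1 exception. Ldha, the lactate dehydrogenase subunit that favours lactate, was at 2153, 1929.5 and 2553 CPM in 482N1, 1063, 1032 and 896 in B16F10-BrM, and 764, 807 and 805 in E0771-BrM. No library of 1 line overlapped with another line, and the log2 difference from 482N1 was -1.15 ± 0.08 in B16F10-BrM (adjusted p = 4.73e-16) and -1.48 ± 0.08 in E0771-BrM (adjusted p = 2.97e-19). Pdk1, the pyruvate dehydrogenase kinase best known as a HIF target, was at 139, 113 and 140.1 CPM in 482N1, 44.1, 55.2 and 51.3 in B16F10-BrM, and 18.8, 22.8 and 22.1 in E0771-BrM, in the same order and again without overlap. E0771-BrM stood 6.14-fold below 482N1 (log2 -2.62 ± 0.11, adjusted p = 3.1e-26). Pdk2, a widely expressed kinase of the same family, was at 34.3, 26.6 and 28.6 CPM in 482N1, 0.729, 1.51 and 0.932 in B16F10-BrM, and 1.9, 3.36 and 2.87 in E0771-BrM. It was 28.4-fold lower in B16F10-BrM and 10.9-fold lower in E0771-BrM than in 482N1 (log2 -4.83 ± 0.32 and -3.45 ± 0.23, adjusted p = 1.96e-23 and 2.85e-20), with at most 12 counts in a B16F10-BrM library. Pdk3 was the exception, at 44.5, 34.3 and 40.9 CPM in 482N1, 26.7, 28.4 and 33.4 in B16F10-BrM, and 91.5, 92.5 and 97.6 in E0771-BrM, with every E0771-BrM library at 91.5 or more and every other library at 44.5 or less. The log2 difference of E0771-BrM was 1.24 ± 0.10 from 482N1 and 1.67 ± 0.10 from B16F10-BrM (adjusted p = 1.94e-15 and 9.85e-20). The ratio of Pdk3 to Pdk2 was accordingly 1.3, 1.29 and 1.43 in 482N1, 36.6, 18.8 and 35.9 in B16F10-BrM, and 48.1, 27.5 and 34 in E0771-BrM, and the 482N1 libraries lay apart from the rest.

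The oxygen sensors held the largest positive difference of the set, that of Egln3 between E0771-BrM and B16F10-BrM. Hif1a, the main HIF alpha subunit, was at 190.2, 206 and 202 CPM in 482N1, 101, 97.4 and 96.4 in B16F10-BrM, and 131, 136 and 140.1 in E0771-BrM. Its transcript was highest in 482N1, then E0771-BrM, then B16F10-BrM, with no overlap and a log2 difference of -1.02 ± 0.08 between B16F10-BrM and 482N1 (adjusted p = 6.34e-17). HIF alpha is controlled chiefly as a protein, which was not measured. Egln1, the main HIF prolyl hydroxylase, was at 201, 161 and 272 CPM in 482N1, 81.9, 87.3 and 74.5 in B16F10-BrM, and 48.6, 50.3 and 61.1 in E0771-BrM. It was highest in 482N1 and lowest in E0771-BrM, without overlap, and E0771-BrM was 3.96-fold below 482N1 (log2 -1.99 ± 0.20, adjusted p = 3.19e-05). Its difference of -0.61 ± 0.21 between E0771-BrM and B16F10-BrM (adjusted p = 0.029) did not pass without library A of 482N1 or without library A or B of either other line (adjusted p from 0.0546 to 0.0897). Egln2, a second hydroxylase, was at 40.6, 31.8 and 35.1 CPM in 482N1, 29.6, 25 and 23.4 in B16F10-BrM, and 16.1, 16.2 and 15.3 in E0771-BrM in the same order, with a log2 difference of -1.17 ± 0.13 between E0771-BrM and 482N1 (adjusted p = 2.47e-11). Egln3, a hydroxylase whose gene is itself a HIF target, was at 20, 17.8 and 21.3 CPM in 482N1, 2.6, 3.26 and 1.63 in B16F10-BrM, and 138, 155 and 182 in E0771-BrM. Here the breast line was far above the other 2 and the melanoma line was lowest. E0771-BrM was 8.05-fold above 482N1 (log2 3.01 ± 0.11, adjusted p = 4.29e-27) and 63.4-fold above B16F10-BrM (log2 5.99 ± 0.21, adjusted p = 1.59e-33). The ratio of Egln3 to Egln1 was 0.0994, 0.11 and 0.0783 in 482N1, 0.0318, 0.0374 and 0.0219 in B16F10-BrM, and 2.85, 3.09 and 2.98 in E0771-BrM, so Egln3 had more reads than Egln1 in E0771-BrM only, of the 3 lines.

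Among the other hypoxia-response genes, 8 of 10 stood lower in B16F10-BrM and 9 of 10 in E0771-BrM, each against 482N1, and none stood higher, beside 39.9% and 40.4% of all genes lower. Between E0771-BrM and B16F10-BrM they divided, with 6 lower and 4 higher in E0771-BrM (60% and 40%), beside 36.5% and 37.2% of all genes.

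Bnip3 and Bnip3l encode receptors on the outer mitochondrial membrane that lead to mitophagy. Bnip3 was at 696, 563 and 832 CPM in 482N1, 189, 221 and 141 in B16F10-BrM, and 19.4, 17.5 and 24.3 in E0771-BrM. The lines were widely separated, with no overlap between any pair of them, and E0771-BrM was lowest. The log2 difference from 482N1 was -1.92 ± 0.21 in B16F10-BrM (adjusted p = 0.000141) and -5.09 ± 0.27 in E0771-BrM (adjusted p = 1.64e-06), a level 34.1-fold lower. Bnip3l was at 289, 243 and 348 CPM in 482N1, 255, 257 and 242 in B16F10-BrM, and 112, 121 and 132 in E0771-BrM. It was lower in all E0771-BrM libraries than in any other (log2 -1.27 ± 0.09 from 482N1, adjusted p = 1.02e-13), while 482N1 and B16F10-BrM overlapped. Its difference of -0.22 ± 0.09 between those 2 lines (adjusted p = 0.0263) did not pass without library C of 482N1 (adjusted p = 0.393), nor without library A of 482N1 or library A or C of B16F10-BrM (adjusted p from 0.0526 to 0.0972), and with library B alone it was 0.05. The ratio of Bnip3l to Bnip3 was 0.415, 0.431 and 0.418 in 482N1, 1.35, 1.16 and 1.72 in B16F10-BrM, and 5.77, 6.9 and 5.43 in E0771-BrM, with no overlap between any 2 lines.

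Vegfa, the growth factor for blood vessels, was at 146, 168 and 209.6 CPM in 482N1, 43.3, 48.6 and 41.7 in B16F10-BrM, and 24.5, 19.3 and 23.6 in E0771-BrM. The 3 lines did not overlap, and the log2 difference from 482N1 was -1.97 ± 0.11 in B16F10-BrM (adjusted p = 3.69e-18) and -2.96 ± 0.12 in E0771-BrM (adjusted p = 4.15e-22). Ankrd37, a small ankyrin repeat protein whose gene is a HIF1 target, was at 32.4, 18.1 and 34.7 CPM in 482N1, 1.15, 0.753 and 0.816 in B16F10-BrM, and 3.81, 4.2 and 6.11 in E0771-BrM. The B16F10-BrM levels rest on 11, 6 and 7 counts. Ankrd37 was 30.4-fold lower in B16F10-BrM and 6.01-fold lower in E0771-BrM than in 482N1 (log2 -4.93 ± 0.39 and -2.59 ± 0.23, adjusted p = 1.04e-17 and 4.52e-13). Unlike Bnip3 and Vegfa, it was higher in E0771-BrM than in B16F10-BrM (2.34 ± 0.41, adjusted p = 6.74e-07).

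Mxi1 and Ndrg1 shared that second order of the lines. Mxi1, a MAX-binding antagonist of MYC, was at 201, 201 and 242 CPM in 482N1, 38.9, 39.4 and 30.1 in B16F10-BrM, and 109.9, 118 and 139.9 in E0771-BrM. It was 5.94-fold lower in B16F10-BrM than in 482N1 (adjusted p = 7.25e-22) and 3.39-fold higher in E0771-BrM than in B16F10-BrM (adjusted p = 6.92e-17), and no 2 lines overlapped. Ndrg1, a gene induced by hypoxia and other stresses, was at 167, 127 and 310.4 CPM in 482N1, 30.2, 30.9 and 29.5 in B16F10-BrM, and 107, 96.2 and 114 in E0771-BrM. All 3 B16F10-BrM libraries lay near 30 CPM, below every other library (log2 -2.74 ± 0.36 from 482N1, adjusted p = 0.000386). Library C of 482N1 stood well above libraries A and B, and the difference of -0.93 ± 0.32 between E0771-BrM and 482N1 (adjusted p = 0.0356) came to -0.48 without it (adjusted p = 2.13e-05). That difference did not pass when any single library of B16F10-BrM or E0771-BrM was left out (adjusted p from 0.0566 to 0.0966).

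**Figure D3:**
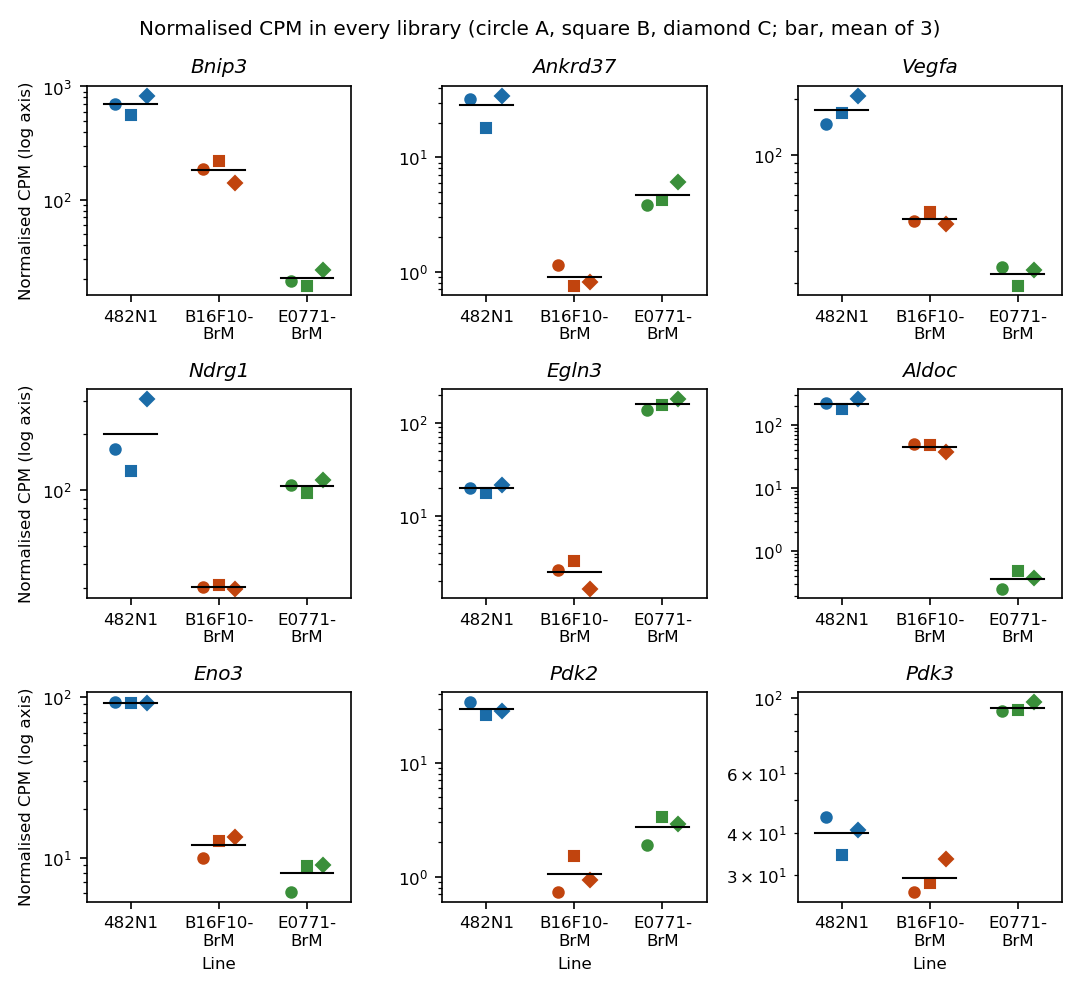
Normalised CPM (vertical axis, log scale, a separate range for each gene) in every library of the 3 lines (horizontal axis) for 9 genes, with a bar at the mean of 3. Bnip3, Vegfa, Aldoc, Eno3, Pdk2, Ankrd37 and Ndrg1 have their highest mean in 482N1, and Egln3 (138 to 182 CPM) and Pdk3 (91.5 to 97.6 CPM) have theirs in E0771-BrM.

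P4ha1 and P4ha2 encode the catalytic subunits of collagen prolyl 4-hydroxylase. P4ha1 was at 72.4, 78.2 and 94.7 CPM in 482N1, 48.4, 46.7 and 50.2 in B16F10-BrM, and 29.2, 31.8 and 38.8 in E0771-BrM, in the order 482N1, B16F10-BrM, E0771-BrM without overlap, with E0771-BrM 2.46-fold below 482N1 (log2 -1.30 ± 0.11, adjusted p = 4.79e-15). P4ha2 lay between 22.8 and 53.5 CPM and was lower in B16F10-BrM than in both other lines (-0.81 ± 0.12 from 482N1, adjusted p = 1.32e-07), which did not pass the test against each other (0.00 ± 0.12). Its ratio to P4ha1 was 0.485, 0.477 and 0.565 in 482N1, 0.499, 0.489 and 0.487 in B16F10-BrM, and 1.44, 1.36 and 1.04 in E0771-BrM. Every E0771-BrM library was at 1.04 or more and every other library at 0.565 or less. Kdm3a, a histone H3 lysine 9 demethylase, lay between 25.9 and 64.8 CPM, and Higd1a, a mitochondrial inner membrane protein, between 298 and 742. Both were lower in E0771-BrM than in 482N1 (-0.89 ± 0.12, adjusted p = 4.51e-09, and -0.75 ± 0.24, adjusted p = 0.0275), and neither passed between B16F10-BrM and 482N1 (0.06 ± 0.11 and 0.21 ± 0.24). The Higd1a call did not hold without library A of 482N1 or any library of E0771-BrM (adjusted p from 0.0542 to 0.0837), and with library B alone the Higd1a difference was -0.23 (adjusted p = 0.562). Exons of Bnip3, Ankrd37, Higd1a and Ndrg1 overlap antisense genes over 27.2%, 26.2%, 22.5% and 19.2% of their length. Those of Pfkp and Gpi1 do so over 17.4% and 12.3%. Exons of Pkm overlap a gene on the same strand over 12.9% of their length, which strand cannot separate. In each other gene the overlap was at most 8.77% (Hif1a). The kit marks strand, but the counting step is not given in the sources used here, so reads of these partners may not have been told apart.

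**Figure D4:**
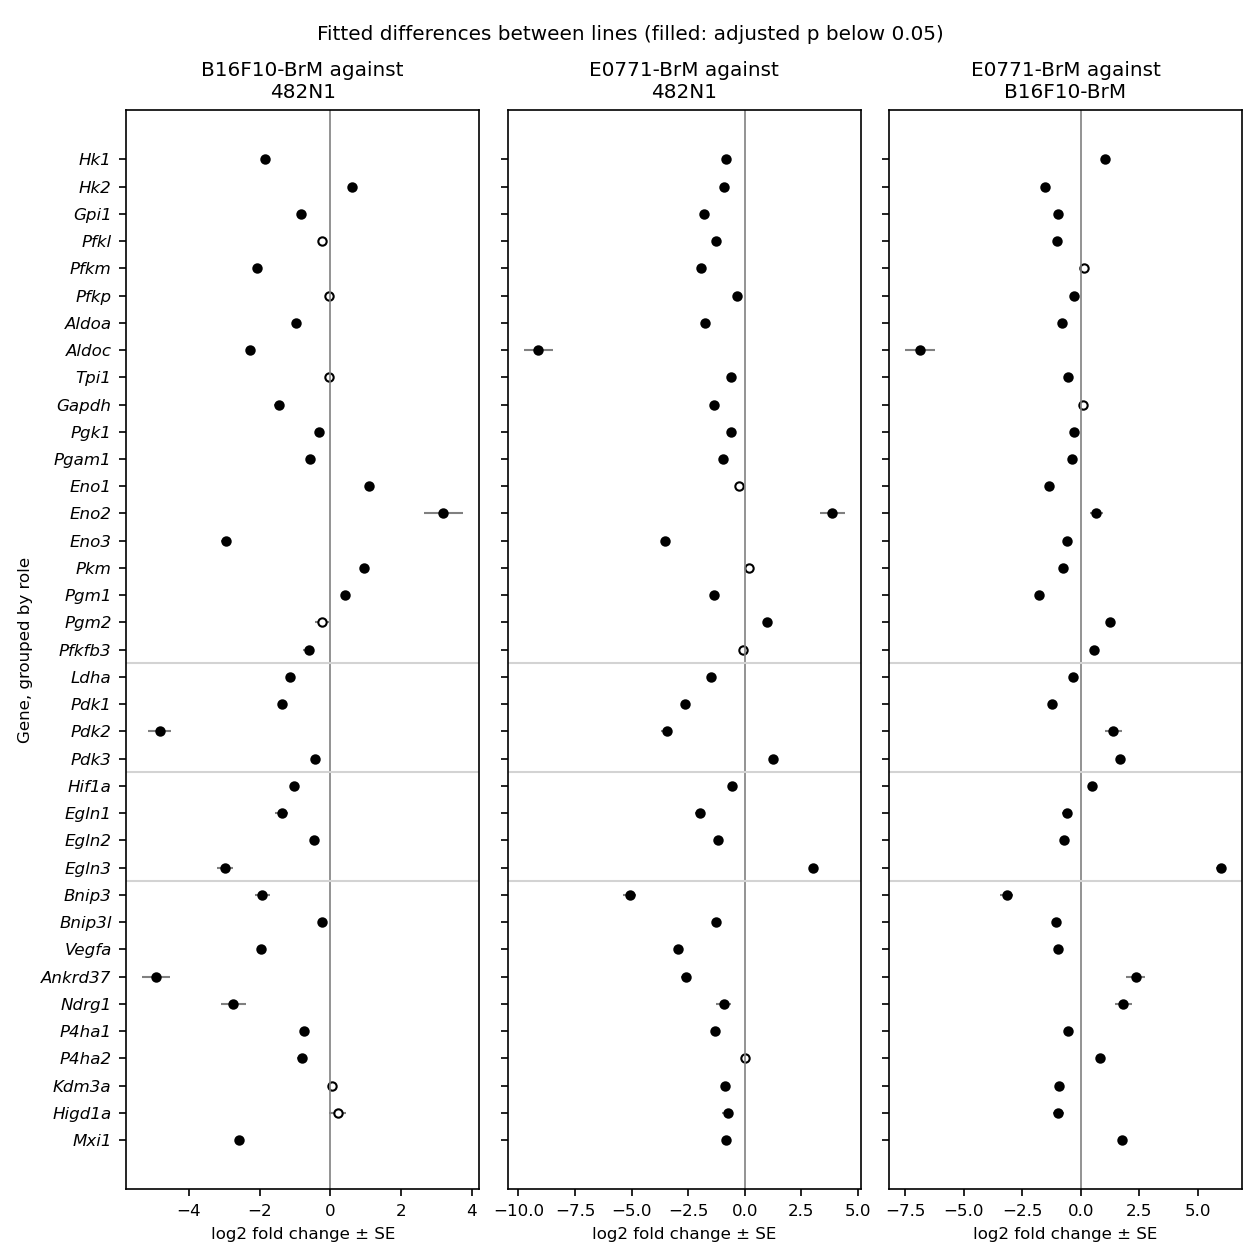
Fitted log2 fold change with its SE (horizontal axis, a different range in each panel) for each of the 37 genes (vertical axis) in the 3 comparisons, with filled circles for adjusted p below 0.05. Most circles lie left of 0 in the panels against 482N1 (26 and 29 genes lower), and Aldoc at -9.13 and Egln3 at 5.99 are the lowest and the highest values shown.

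Within 482N1, the genes also differed between libraries, most of them in the same direction. Library C had the highest level of 27 of the 37 genes (73%), while it had the highest level of 32.2% of all genes tested. Library B had the lowest level of 30 (81.1%), against 35.2% of all genes. The median log2 difference of library C from library B was 0.40 over the 37 genes and 0 over all genes. All 10 of the other hypoxia-response genes were highest in library C. The ratio of C to B was 2.44 for Ndrg1, 1.92 for Ankrd37, 1.75 for Higd1a and 1.69 for Egln1. The 3 exceptions to C above B were Pgm2, with a ratio of 0.678 and its highest value in library B, Hif1a, at 0.981 and also highest in B, and Eno3, at 0.997. The share of Rn18s in the counts was 11.6% in library A, 13.1% in B and 12.2% in C, that of mitochondrial ribosomal RNA 3.38%, 4.44% and 4.45%, and Dct was lowest in B as given above. Library C of B16F10-BrM leaned the other way, with the highest level of 4 of the 37 genes (10.8%), against 33.4% of all genes. The median of the 37 genes there was -0.142 (log2) from the mean of the line, and that of all genes 0. Rn18s made up 7.99% of its counts, against 7.31% and 6.4% in libraries A and B. In E0771-BrM the medians were -0.058, -0.006 and 0.048. The part of these shares in the pattern was not tested. Without library C of 482N1, 25 genes were lower in B16F10-BrM and 29 in E0771-BrM than in 482N1, beside 38.7% and 38.9% of all genes in that fit.

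**Figure D5:**
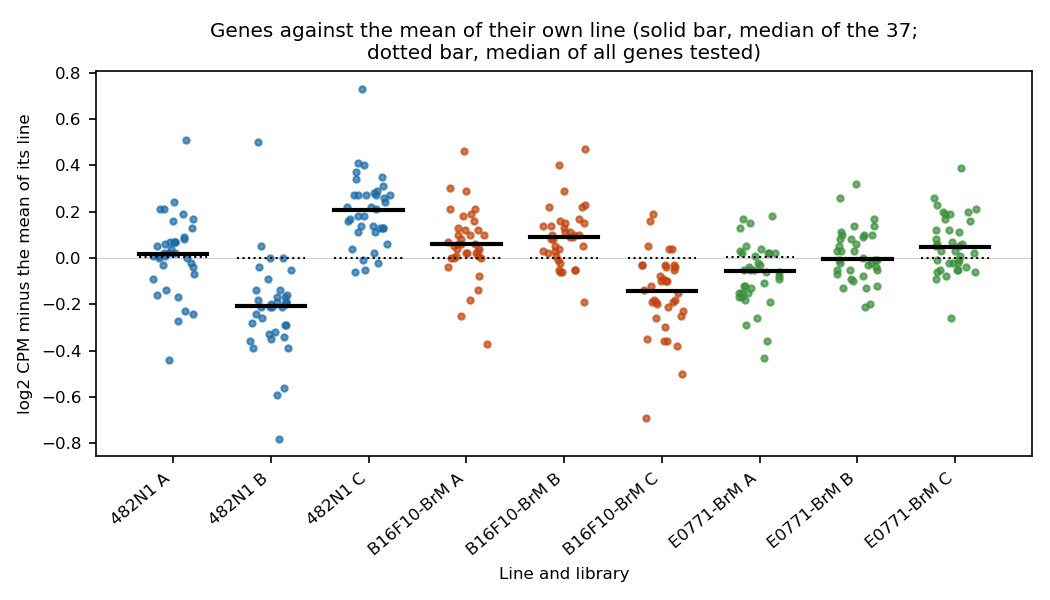
Log2 CPM of each of the 37 genes in a library minus the mean of its own line (vertical axis), for the 9 libraries (horizontal axis), with the median of the 37 as a solid bar and that of all genes as a dotted bar. The medians of the 37 were 0.018, -0.206 and 0.206 in libraries A, B and C of 482N1 and 0.061, 0.09 and -0.142 in those of B16F10-BrM, while those of all genes lay between -0.002 and 0.005.

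The rest of the pathway was described from 6 lists. Their counts are to be read beside all genes tested, of which 39.9% were lower and 38% higher in B16F10-BrM, and 40.4% lower and 37.7% higher in E0771-BrM, each against 482N1. The transport of glucose and lactate was measured by 6 of 13 listed genes, of which 4 were lower and 2 higher in each of the other lines than in 482N1. Slc2a1 (GLUT1), the main glucose carrier of many tumours and a HIF target, was at 130.3, 131 and 205 CPM in 482N1, 47.3, 50.2 and 36.6 in B16F10-BrM, and 71.3, 62 and 74.4 in E0771-BrM. Every 482N1 library was above every other one, with log2 differences of -1.80 ± 0.22 in B16F10-BrM and -1.17 ± 0.21 in E0771-BrM (adjusted p = 0.000129 and 0.00134). Slc2a3 (GLUT3), the neuronal carrier, ran the other way and stood at 5.79 ± 1.07 CPM (SD, n = 3) in the lung line, 22.7 ± 2.08 in the melanoma line and 15.3 ± 1.42 in the breast line. So did the lactate exporter Slc16a3 (MCT4), at 83.3 ± 2.03, 170.1 ± 30.3 and 210.1 ± 5.37 CPM. Bsg (basigin), the partner that brings lactate carriers to the cell surface, was at 1149 ± 276, 203 ± 25.5 and 91 ± 4.2 CPM, a log2 difference of -3.66 ± 0.19 between E0771-BrM and 482N1 (adjusted p = 1.72e-06). 482N1 thus had the most Slc2a1 and Bsg transcript and the least Slc2a3 and Slc16a3.

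The pentose phosphate pathway, which branches off glucose 6-phosphate and yields NADPH and ribose, had more genes higher than lower against 482N1. Of 11 measured genes (of 12 listed), 7 were higher and 2 lower in E0771-BrM, and 6 higher and 3 lower in B16F10-BrM, each against 482N1. The higher shares were 63.6% and 54.5%, beside 37.7% and 38% of all genes, and the lower shares 18.2% and 27.3%, beside 40.4% and 39.9%. Pgd, which makes NADPH, was at 47.2 ± 3.77, 105 ± 4.13 and 195 ± 13.5 CPM (SD, n = 3) in 482N1, B16F10-BrM and E0771-BrM. Taldo1 (transaldolase) was at 82.3 ± 4.51, 109 ± 11.2 and 284 ± 20.4 CPM, and Prps1, which activates ribose 5-phosphate for nucleotides, at 53.1 ± 5.62, 52.2 ± 3.58 and 226 ± 8.27. The log2 difference between E0771-BrM and 482N1 was 1.78 ± 0.08 for Taldo1 and 2.09 ± 0.08 for Prps1 (adjusted p = 1.05e-24 and 8.99e-27). Pgls, the lactonase of the second step, was the opposite, at 158 ± 1.36, 90 ± 11.3 and 25 ± 0.24 CPM, and so was Tkt (transketolase), at 384 ± 4.89, 174 ± 17.8 and 245 ± 13.4 CPM, with log2 differences of -1.14 ± 0.07 in B16F10-BrM and -0.65 ± 0.07 in E0771-BrM (adjusted p = 7.3e-19 and 7.07e-11).

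The entry of pyruvate into mitochondria was measured by 11 of 12 listed genes. Between E0771-BrM and 482N1, 4 were higher and 2 lower, and between B16F10-BrM and 482N1, 5 were higher and 4 lower. Mpc1, a subunit of the mitochondrial pyruvate carrier, was at 5.8, 6.38 and 7.99 CPM in 482N1, 49.5, 41.3 and 54.3 in B16F10-BrM, and 82.2, 65.5 and 69.1 in E0771-BrM. It was lowest in all 482N1 libraries, where Ldha and Pdk1 were highest, and the log2 difference was 2.85 ± 0.15 in B16F10-BrM and 3.42 ± 0.15 in E0771-BrM (adjusted p = 5.78e-23 and 2.22e-26). Dld and Pdhb, subunits of the pyruvate dehydrogenase complex, were also lowest in 482N1 (30 ± 1.6, 59.8 ± 4.35 and 86.2 ± 5.81 CPM for Dld, 46.3 ± 1.53, 79.1 ± 3.89 and 120.1 ± 3.94 for Pdhb). Pdha1, the subunit that the Pdk enzymes phosphorylate, was highest there, at 179 ± 10.3, 75.9 ± 5.66 and 135 ± 7.47 CPM.

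Other glycolytic and glucose-regulating enzymes (21 of 37 listed genes measured) had more genes higher than lower against 482N1. In B16F10-BrM 10 were higher and 7 lower (47.6% and 33.3%), beside 38% and 39.9% of all genes. In E0771-BrM 11 were higher and 5 lower (52.4% and 23.8%), beside 37.7% and 40.4% of all genes. Of the genes with the largest differences, Gbe1, the glycogen branching enzyme, was at 103 ± 39.4 CPM in the lung, 55.6 ± 7.16 in the melanoma and 20.4 ± 2.49 in the breast line, and Gys1, the muscle-type glycogen synthase, at 109 ± 21, 51.7 ± 10.3 and 30.3 ± 3.69. Ugp2, which makes the UDP-glucose for glycogen, was highest in B16F10-BrM, at 33.9 ± 2.68, 242 ± 7.77 and 47 ± 5.62 CPM (log2 2.83 ± 0.09 from 482N1, adjusted p = 2.74e-31). Pygl, a glycogen phosphorylase, had counts of 2, 8 and 2 in 482N1, 92, 74 and 41 in B16F10-BrM, and 0, 0 and 0 in E0771-BrM.

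The oxygen-sensing machinery beyond the genes above was measured by 14 of 18 listed genes. Between B16F10-BrM and 482N1, 5 were lower and 3 higher, and between E0771-BrM and 482N1, 7 were lower and 3 higher. Arnt, the constant partner of the HIF alpha subunits, was at 31 ± 4.11, 11.5 ± 0.643 and 19.4 ± 0.632 CPM in 482N1, B16F10-BrM and E0771-BrM (log2 -1.44 ± 0.14 for B16F10-BrM against 482N1, adjusted p = 2.68e-13). Cited2, which competes with HIF alpha for its coactivators, was at 296 ± 11.3, 169 ± 14.1 and 101 ± 4.51 CPM. Siah2, a ubiquitin ligase that acts on EGLN proteins, was highest in E0771-BrM, at 9.79 ± 2.86, 10.1 ± 1.38 and 23.1 ± 0.687 CPM.

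Further HIF target genes, 36 of 46 listed, were mostly lower than in 482N1 as well, with 22 lower and 7 higher in B16F10-BrM and 23 lower and 7 higher in E0771-BrM. The lower shares were 61.1% and 63.9%, beside 39.9% and 40.4% of all genes, and the higher share was 19.4% in both, beside 38% and 37.7%. In 482N1, 22 of the 36 were highest in library C. Adm, the peptide adrenomedullin, had counts of 445, 220 and 957 in 482N1, 2, 4 and 2 in B16F10-BrM, and 391, 622 and 699 in E0771-BrM, and so was low in B16F10-BrM only, and the 482N1 libraries differed among themselves by more than 4-fold. Angptl4, a secreted inhibitor of lipoprotein lipase, had counts of 640, 668 and 630 in 482N1, 0, 0 and 0 in B16F10-BrM, and 17, 24 and 24 in E0771-BrM, and Vldlr, a lipoprotein receptor, 762, 715 and 976 in 482N1, 0, 0 and 3 in B16F10-BrM, and 0, 1 and 0 in E0771-BrM. The B16F10-BrM libraries thus had few or no counts of any of these 3 genes, and the E0771-BrM libraries had many of Adm only. Selenbp1, a selenium-binding protein, was at 73.3 ± 31.6, 36.2 ± 5.84 and 1.24 ± 1.44 CPM (SD, n = 3), with 1, 6 and 23 counts in the E0771-BrM libraries. Ero1a, the endoplasmic reticulum oxidase, was at 525, 358 and 919 CPM in 482N1, 192, 211 and 163 in B16F10-BrM, and 206, 199 and 217 in E0771-BrM, above the other 2 lines in every 482N1 library (log2 -1.67 ± 0.34 in B16F10-BrM and -1.53 ± 0.34 in E0771-BrM, adjusted p = 0.00372 and 0.00546), which did not pass against each other (0.14 ± 0.34).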

How the data were processed

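Poly(A)-selected, strand-marked RNA libraries (TruSeq) of 3 lines were sequenced, with 3 libraries per line. The authors deposited 1 table of raw read counts per gene symbol. Per the submitters' processing notes, the reads went through FastQC and the tools Cufflinks 2.2.1, SAMtools 0.1.19, TopHat2 2.0.10 and Bowtie 1.0.0, with build GRCm39. The counting tool, the annotation and how the 11046 genes were selected are not given in the sources used here. Reads that fit several copies of a gene could have been dropped or split at that step.

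The analysis used edgeR 4.0.16 in R 4.3.3. The filterByExpr filter removed 9 genes and left 11037, and TMM scaled the libraries. Quasi-likelihood F tests (robust, 2-sided) came from 1 fit over all 9 libraries, with a common dispersion of 0.0059. P-values were adjusted by the Benjamini-Hochberg method over all genes tested, with a threshold of 0.05. A line was called highest for a gene by the larger of its 2 one-sided p-values, adjusted likewise. Log2 fold changes carry SE and CPM levels carry SD. The totals of 7332390 to 9293348 counts set the precision of low genes. Replicate libraries differed by more than sampling noise in every pair, so none was treated as a duplicate.

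Isozyme ratios are of raw counts in 1 library, with no test. Exon lengths and overlaps came from GENCODE M21, near-identical copies from blastn 2.17.0, and promoter windows from RefSeq (GRCm38.p6). The build differs from that of the counts, which hold no coordinates. Members may all be named, with values in every library for those that passed and differed by 2-fold or more in some comparison, and up to 4 called genes per pathway list and comparison. Members and lists were chosen with earlier results of these data known. Ero1a was described in addition, for its synonym. 1 pathway gene that the rule names is not reported here.

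Alternatives were upper-quartile or DESeq2 size factors, TMM without the members, removal of ribosomal RNA genes, DESeq2 1.42.0, limma-voom 3.58.1, no filter, a minimum of 1 CPM in 3 libraries, a block for the library letter, only the 2 lines compared, each library left out, only library B of 482N1 and E0771-BrM, and glmTreat against 2-fold. Tested on simulated data for B16F10-BrM against 482N1 with 11015 genes, the fit recovered 79.1%, 95.5% and 100% of genes changed by 1.5-, 2- and 4-fold, and called 0.111% of unchanged genes. Only 67, 67 and 66 genes, none of them low, were changed at these folds, alternately up and down, with the same dispersion for every gene. Between the real lines most genes passed, and how the scaling and the tests perform in that case was not tested.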

Additional observations from a re-analysis of the deposited data

How the results depend on the processing

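Over 20 alternatives other than the 2-fold test, the calls of 25 of 31 genes held in every one for B16F10-BrM against 482N1, 29 of 33 for E0771-BrM against 482N1 and 31 of 35 for E0771-BrM against B16F10-BrM. Calls were lost under at least 1 alternative for Pgk1, Pgm1, Pfkfb3, Pdk3, Egln2 and Bnip3l in the first, Pfkp, Pgm2, Ndrg1 and Higd1a in the second, and Pfkp, Eno2, Eno3 and Egln1 in the third. Calls were gained for Pfkl, Pfkp and Pgm2 in the first and Eno1 and Pkm in the second. With libraries A and C of 482N1 and E0771-BrM left out, so that the lone library B of each is taken to vary as the B16F10-BrM libraries do, the log2 fold change against 482N1 turned to 0.30 for Pfkp (adjusted p = 0.0146) and 0.05 for Bnip3l in B16F10-BrM, and to 0.09 for Pfkp in E0771-BrM, and 2 genes were called highest in E0771-BrM in place of 4. The cause was not tested. The glmTreat test asks for more than a 2-fold change and by construction calls fewer genes, namely 3477, 3342 and 2905 of all genes in the 3 comparisons (31.5%, 30.3% and 26.3%). By it 15 of the 37 were lower and 1 higher in B16F10-BrM than in 482N1 (17.1% and 14.4% of all genes). In E0771-BrM 17 were lower and 3 higher than in 482N1 (16.5% and 13.7%), and 6 lower and 5 higher than in B16F10-BrM (12.9% and 13.4%). With each library left out in turn, the lower genes numbered 25 to 27, 27 to 30 and 21 to 23 and the higher ones 4 to 5, 4 to 5 and 11 to 12. Of all genes, 38.2% to 39.9%, 38.6% to 40.2% and 34.5% to 36.7% were lower in those fits. The higher shares were 36.3% to 38%, 36% to 37.8% and 35.6% to 37.4%. No pair of libraries with the same letter reached an r of 0.1 in their deviations (-0.01 to 0.09 over genes), and pairs with different letters had -0.07 to 0.04. The letter was therefore not taken to pair the libraries in the main fit, though 10 of 18 best matches fell on the library's own letter. With the letter as a replicate block, 8595, 8623 and 8162 genes passed. Of the 37 genes 26, 27 and 22 were lower, beside 39.9%, 40.4% and 36.6% of all genes. The higher ones were 4, 4 and 12, beside 38%, 37.7% and 37.3%, and 35 of the 37 passed the joint test. Genes with few counts (Aldoc in E0771-BrM, Eno2 in 482N1, Ankrd37 and Pdk2 in B16F10-BrM) have the least certain fold changes.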
